A study of Mus musculus with 28 samples.

Results

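Dendritic cells (DCs) present antigen and sense pathogens, and they arise in the bone marrow from progenitors whose expansion depends on signaling through Flt3, the receptor for Flt3 ligand. Plasmacytoid DCs (pDCs) are specialized for type I interferon production and classical DCs for priming T cells, and each branch needs its own set of transcription factors. The data set held RNA-sequencing libraries from mice with an internal tandem duplication (ITD) in both alleles of Flt3, a mutation of acute myeloid leukemia that makes the receptor signal without ligand. All 8 genes of a DC set were found among the 25251 genes of the table. They were picked by symbol from the biology of the lineage, with earlier results of these data known. The set held the pDC surface lectin Siglech, the transcription factors Irf8, Tcf4, Spib, Batf3 and Zbtb46, and the surface molecules Itgax (CD11c) and Clec9a. The 8 genes were compared between genotypes in marrow mononuclear cells (MNCs), with endothelial cells (ECs) and mesenchymal stromal cells (MSCs) beside them.

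The 28 libraries came from C57BL/6 mice that were 8 to 10 wk old, and each library was 1 population of 1 mouse. Flt3+/+ and Flt3 ITD/ITD MNCs had 4 libraries each. ECs had 5 libraries of each genotype and were sorted as CD31+ cells without CD45 and Ter119. MSCs also had 5 of each and were sorted as Sca1+ cells lacking those 2 markers and CD31 and CD166. The ITD was a germline knock-in, so that all cells of these mice carried it, stromal cells included. Each MNC library was made from 200 sorted cells and each EC or MSC library from 100, which makes the level of a gene used by few cells depend on how many such cells were drawn. In such bulk samples fewer cells of a type and less RNA per cell cannot be told apart. Levels are given as RPKM, the reads of a gene scaled for its length and for the depth of the library, a scale on which genes of unequal length can be compared. Log2 fold changes (Flt3 ITD/ITD minus Flt3+/+) came from edgeR's quasi-likelihood test on the estimated counts, with Benjamini-Hochberg adjustment over all genes tested and calls at an adjusted p below 0.1.

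Total estimated counts ranged from 6377013 to 33880743 per library. The populations carried the markers of their labels: summed RPKM of 6 endothelial genes was at least 1467 in ECs and at most 28.1 in MNCs, and that of 7 mesenchymal genes was at least 26304 in MSCs and at most 4.90 in MNCs. Among the MNC libraries, Flt3 ITD/ITD replicates 3 and 4 stood apart from the other 6 by the summed RPKM of 12 neutrophil genes (44529 and 60774, against 162369 to 212135). Flt3+/+ replicates 3 and 4 stood apart by the summed RPKM of erythroid genes (56541 and 51125, against 76.5 to 14393 in the other 6). All 4 MNC libraries of replicate numbers 3 and 4 also had low sums of 10 immediate-early genes, 131 to 266 against 764 to 1165 in replicates 1 and 2. No label names a batch behind these numbers. A figure legend of the study gives 2 experiments for its EC and MSC comparisons, and no label ties a library to either. Some stromal libraries also carried blood cell transcripts: the neutrophil sum was 30084 RPKM in Flt3 ITD/ITD EC replicate 2, 6341 in Flt3 ITD/ITD MSC replicate 5 and 1321 in Flt3+/+ EC replicate 1, and at most 534 in the other EC and MSC libraries.

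Flt3 itself was measured at 6.96, 6.74, 2.53 and 2.72 RPKM in Flt3+/+ MNCs and at 6.91, 14.8, 11.0 and 10.7 in Flt3 ITD/ITD MNCs. All but the first Flt3 ITD/ITD library lay above every Flt3+/+ library, and the counts, which are per gene, do not show the duplication itself. Its log2 fold change was 1.06 (SE 0.33, n = 4 per genotype) with an adjusted p of 0.415 by edgeR's quasi-likelihood test and of 0.0892 by DESeq2.

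The promoters of 3 of the genes are shown because their transcripts had unlike distributions: Siglech was read almost entirely in MNCs, Clec9a was far higher in 1 Flt3 ITD/ITD MNC library than in any other, and Zbtb46 was highest in ECs. The sequences are RefSeq's promoter windows on GRCm38.p6, from 250 bases before to 50 after an annotated start, 5′ to 3′ on the gene's strand, with capitals at each E-box (CANNTG), the core that basic helix-loop-helix factors such as the Tcf4 protein bind. The pattern CANNTG is its own reverse complement, so a match on either strand is a match on the other. The Siglech window is chr7:55767934-55768233 on the plus strand and the Clec9a window is chr6:129408612-129408911 on the plus strand. The Zbtb46 window is chr2:181424339-181424638 on the minus strand and lies within the span of the gene, whose annotation reaches 181493262, so it belongs to an internal start.
Siglech: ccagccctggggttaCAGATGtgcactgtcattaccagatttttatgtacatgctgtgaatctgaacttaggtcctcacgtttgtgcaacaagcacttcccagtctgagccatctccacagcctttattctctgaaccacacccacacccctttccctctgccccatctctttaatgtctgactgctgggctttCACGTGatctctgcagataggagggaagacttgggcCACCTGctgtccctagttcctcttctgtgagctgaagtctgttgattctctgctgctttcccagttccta
Clec9a: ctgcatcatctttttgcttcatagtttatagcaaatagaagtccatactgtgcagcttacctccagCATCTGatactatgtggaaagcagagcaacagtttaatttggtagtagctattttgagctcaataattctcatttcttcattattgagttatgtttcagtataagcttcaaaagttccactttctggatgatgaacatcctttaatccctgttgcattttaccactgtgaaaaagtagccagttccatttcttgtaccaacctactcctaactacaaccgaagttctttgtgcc
Zbtb46: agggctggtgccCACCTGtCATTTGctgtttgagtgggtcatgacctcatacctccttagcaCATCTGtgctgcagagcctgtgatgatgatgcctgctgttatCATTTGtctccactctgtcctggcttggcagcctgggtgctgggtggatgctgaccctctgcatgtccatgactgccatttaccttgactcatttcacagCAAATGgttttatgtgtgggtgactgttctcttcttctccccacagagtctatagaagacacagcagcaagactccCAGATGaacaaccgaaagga

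E-boxes numbered 3 in the Siglech window, 1 in that of Clec9a and 6 in that of Zbtb46. Of the windows not shown, those of Batf3, Itgax and Spib held 2 each, and the 2 windows of Irf8 held 0 and 2. Of 32851 mouse promoter windows of the same length, 72.31% held at least 1 E-box, 39.64% at least 2, 17.61% at least 3 and 0.67% at least 6. The composite element of ETS and IRF factors was searched as GGAANNGAA on both strands and was in 8.24% of all windows and in none of the windows of the 7 genes searched. Tcf4 was not searched. The interferon response core, GAAANNGAA, was in 8.56% of all windows and, among these 7, in that of Clec9a only. A match of letters is a description and was not tested as a binding site. Tcf4 lies on chromosome 18 and Irf8, Spib, Batf3 and Itgax on chromosomes 8, 7, 1 and 7. The annotated spans of Siglech, Tcf4, Zbtb46 and Clec9a overlap other annotated genes (among them Clec12b at Clec9a, and Zgpat and Lime1 at Zbtb46). Only the spans were compared, and reads were aligned to transcripts, so the overlap matters only where exon sequence is shared, which was not examined. The use of strand in counting is not stated.

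In MNCs, none of the 8 genes differed between genotypes past the threshold, against 0.0144% of the 13926 genes tested. None had an unadjusted p below 0.05 either, which 10.4% of all genes tested had, and in no gene of the 8 did the genotypes separate without overlap, as they did in 6.71% of all genes tested. The fitted values were higher in Flt3 ITD/ITD MNCs for 7 of the 8, with a median log2 fold change of 0.76 against -0.01 over all genes tested. DESeq2 also called none of the 8, against 3.11% of all genes to which it gave an adjusted p. Exact two-sided permutation tests of the RPKM values gave p from 0.114 (Batf3) to 0.457 (Spib), where 4 against 4 libraries allow 0.0286 at the least. In replicates 1 and 2 alone, the ratio of the genotype means was 2.78 for Batf3, 1.08 for Itgax, 0.949 for Zbtb46 and 0.607 for Spib. This split leaves out the 2 Flt3 ITD/ITD libraries with low neutrophil sums and the 2 Flt3+/+ libraries with high erythroid sums. The part of either make-up in the ratios was not tested.

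**Figure D1:**
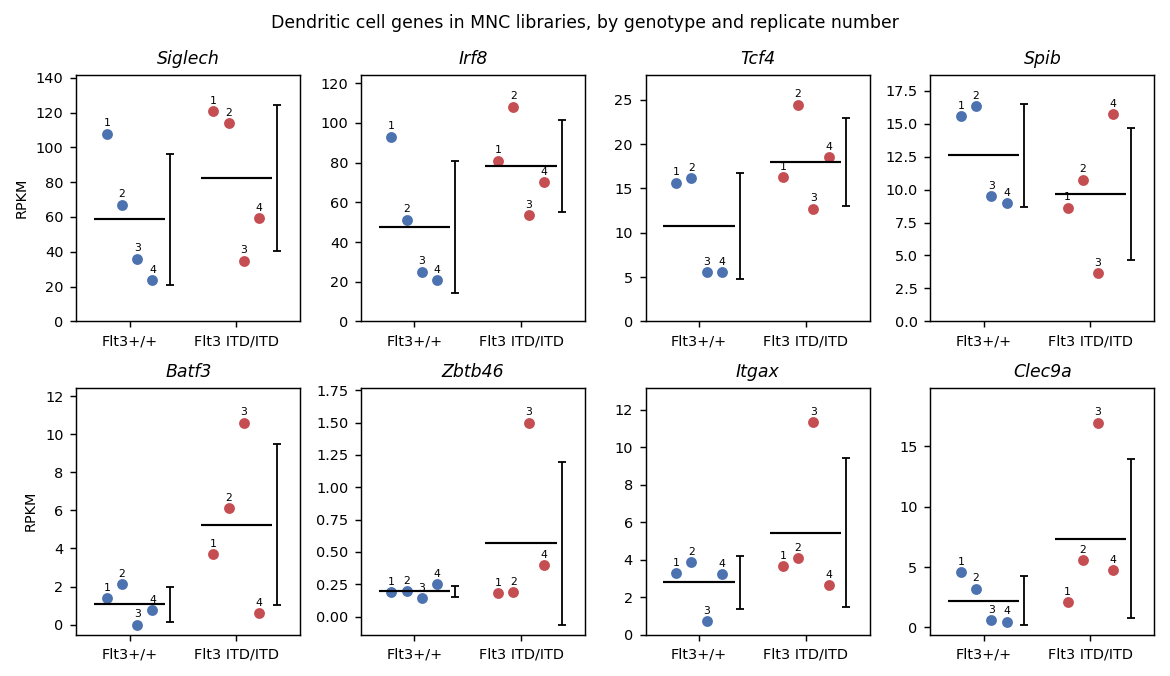
Each panel plots 1 gene in MNCs, with RPKM on the y axis, 1 point per library numbered by its replicate, a line at the mean and a bar of ± 1 SD (n = 4 per genotype). The genotypes overlap in every panel, and replicate 3 of Flt3 ITD/ITD is the highest library for Batf3, Zbtb46, Itgax and Clec9a but the lowest of its genotype for Siglech, Irf8, Tcf4 and Spib.

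The pDC genes were followed first. Siglech, an endocytic receptor that marks mouse pDCs, was measured at 107.84, 67.09, 36.04 and 23.65 RPKM in Flt3+/+ MNCs and at 120.70, 114.00, 34.97 and 59.55 in Flt3 ITD/ITD MNCs. The genotypes overlapped widely, and in both the first 2 replicates were above the last 2, with means over both genotypes of 102.4 and 38.6 RPKM. Its log2 fold change was 0.37 (SE 0.47, 95% interval -0.69 to 1.43, adjusted p = 0.820 by edgeR). The ratio of the genotype means was 1.34 within replicates 1 and 2 and 1.58 within replicates 3 and 4. On leaving out single libraries the log2 fold change lay between 0.08 and 0.77.

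Tcf4 encodes the E protein that specifies and maintains pDCs and is also active in B cell progenitors. It was measured at 15.66, 16.17, 5.54 and 5.56 RPKM in Flt3+/+ MNCs and at 16.27, 24.46, 12.73 and 18.56 in Flt3 ITD/ITD MNCs. Of the Flt3 ITD/ITD libraries only replicate 3 fell below the highest Flt3+/+ value. The log2 fold change was 0.66 (SE 0.33, 95% interval -0.08 to 1.39, adjusted p = 0.513 by edgeR), and 0.76 without that library.

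Irf8, needed by pDCs, by the Batf3-dependent classical DCs and by monocytes, was measured at 93.13, 51.33, 25.11 and 20.97 RPKM in Flt3+/+ MNCs and at 81.08, 108.26, 53.50 and 70.36 in Flt3 ITD/ITD MNCs. One Flt3+/+ library reached into the Flt3 ITD/ITD range and the other 3 lay below it. Its log2 fold change was 0.59 (SE 0.40, 95% interval -0.30 to 1.48, adjusted p = 0.629 by edgeR), and 0.73 without Flt3 ITD/ITD replicate 3. For Irf8 and Tcf4 the ratio of the genotype means was 1.31 and 1.28 within replicates 1 and 2, and 2.69 and 2.82 within replicates 3 and 4. The summed RPKM of 12 monocyte and macrophage genes, among which Ly6c2 and Lyz1 were the most abundant, was 4108 to 5482 in Flt3+/+ and 5845 to 7264 in Flt3 ITD/ITD MNCs, without overlap, and its part in the Irf8 values was not tested.

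Spib, an ETS factor of pDCs and of B cells, was the 1 gene of the 8 with a lower fitted level in Flt3 ITD/ITD MNCs. It was measured at 15.59, 16.34, 9.50 and 8.98 RPKM in Flt3+/+ MNCs and at 8.63, 10.75, 3.66 and 15.70 in Flt3 ITD/ITD MNCs. The ranges overlapped, and the log2 fold change of -0.56 (SE 0.37, 95% interval -1.39 to 0.26, adjusted p = 0.614 by edgeR) became -0.30 without Flt3 ITD/ITD replicate 3. Of 12 B cell genes, 11 were lower in Flt3 ITD/ITD MNCs, 4 of them at an unadjusted p below 0.05 (5% of all genes tested were lower at that threshold), with a median log2 fold change of -1.12 and sums of 236 to 853 RPKM against 503 to 1285. The part of B cells in the Spib and Tcf4 values was not tested.

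The genes of classical DCs were low in MNCs, and replicate 3 of Flt3 ITD/ITD was the highest library for each of Clec9a, Batf3, Itgax and Zbtb46. Clec9a, a receptor for dead-cell debris on cross-presenting DCs, was measured at 4.55, 3.22, 0.64 and 0.49 RPKM in Flt3+/+ MNCs and at 2.10, 5.55, 16.94 and 4.76 in Flt3 ITD/ITD MNCs. Flt3 ITD/ITD replicates 2, 3 and 4 were above every Flt3+/+ library and replicate 1 was not. Replicate 3 was 4.10 times the mean of the other 3 Flt3 ITD/ITD libraries. The log2 fold change of 1.64 (SE 0.77, 95% interval -0.10 to 3.38, adjusted p = 0.497 by edgeR) became 0.80 without that library (95% interval -0.81 to 2.40). Within replicates 1 and 2 the ratio of the genotype means was 0.985 and within replicates 3 and 4 it was 19.2.

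Batf3, the partner of Irf8 in the differentiation of these cells, had few reads, from 0 to 176 per MNC library. Its level was 1.40, 2.13, 0 and 0.76 RPKM in Flt3+/+ and 3.72, 6.11, 10.61 and 0.60 in Flt3 ITD/ITD MNCs. The first 3 Flt3 ITD/ITD libraries were above all 4 Flt3+/+ libraries and replicate 4 was not. Its log2 fold change was the largest of the 8 and the least certain, at 2.23 (SE 1.04, 95% interval -0.10 to 4.56, adjusted p = 0.493 by edgeR), and 1.65 without replicate 3.

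Itgax encodes the integrin that marks most DCs. It was measured at 3.31, 3.87, 0.74 and 3.25 RPKM in Flt3+/+ MNCs and at 3.67, 4.09, 11.35 and 2.66 in Flt3 ITD/ITD MNCs. Apart from the 2 libraries numbered 3, one low and one high, the libraries of both genotypes lay between 2.66 and 4.09. With all libraries the log2 fold change was 0.86 (SE 0.57, 95% interval -0.42 to 2.14, adjusted p = 0.624 by edgeR) and 0.15 without Flt3 ITD/ITD replicate 3.

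Zbtb46, which among blood cells is largely restricted to classical DCs and their committed precursors, was close to absent from most MNC libraries. Its level was 0.19, 0.20, 0.14 and 0.25 RPKM in Flt3+/+ and 0.18, 0.19, 1.50 and 0.40 in Flt3 ITD/ITD MNCs. Replicate 3 was 5.84 times the mean of the other 3 Flt3 ITD/ITD libraries. The log2 fold change of 1.15 (SE 0.68, 95% interval -0.38 to 2.69, adjusted p = 0.571 by edgeR) fell to 0.13 without it.

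**Figure D2:**
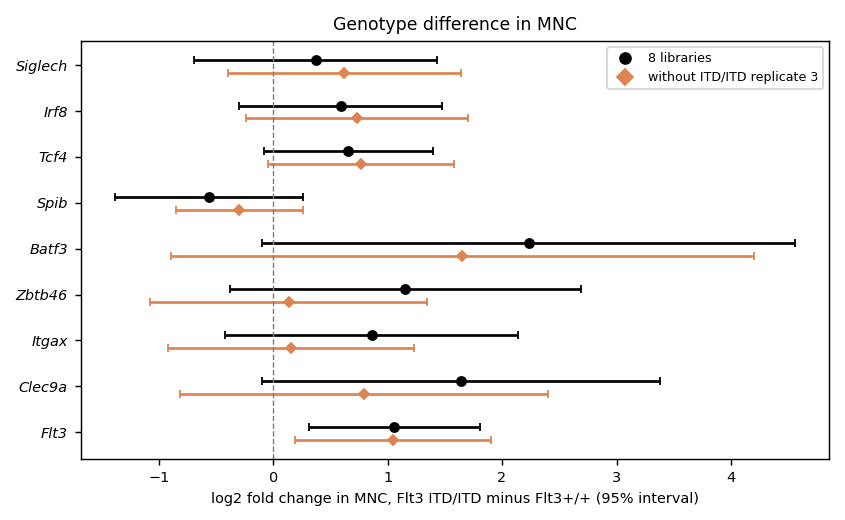
Log2 fold changes in MNCs (x axis, Flt3 ITD/ITD minus Flt3+/+) with 95% intervals for the 8 genes and Flt3, over all 8 libraries (black circles) and without Flt3 ITD/ITD replicate 3 (orange diamonds). Every interval of the 8 DC genes includes 0 in both, and the values of Zbtb46 (1.15 to 0.13), Itgax (0.86 to 0.15) and Clec9a (1.64 to 0.80) move most toward 0.

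Other DC genes were then read from 5 lists of 68 genes that did not include the 8: genes of pDCs, of the 2 classical DC branches and of mature DCs, and genes acting in DC development, Flt3 among them. Of these, 64 could be tested in MNCs and none passed an adjusted p of 0.1 by edgeR's quasi-likelihood test. At an unadjusted p below 0.05, 14 were higher in Flt3 ITD/ITD MNCs (21.9%), against 5.39% of all genes tested, and 1 was lower. The lists were chosen with earlier results of these data known, so these shares are a description and not an independent test. DESeq2 called 6 (Flt3, Kmo, Cd40, Cd7, Ifi205 and Gcsam), all higher, with 7 of the 68 left without an adjusted p, and it called 3.11% of all genes to which it gave one. Without Flt3 ITD/ITD replicate 3, 8 were higher and 1 lower at an unadjusted p below 0.05, against 3.59% of all 14245 genes then tested that were higher. The median log2 fold change over the 64 was 0.37 with all libraries and 0.25 without that one.

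**Figure D3:**
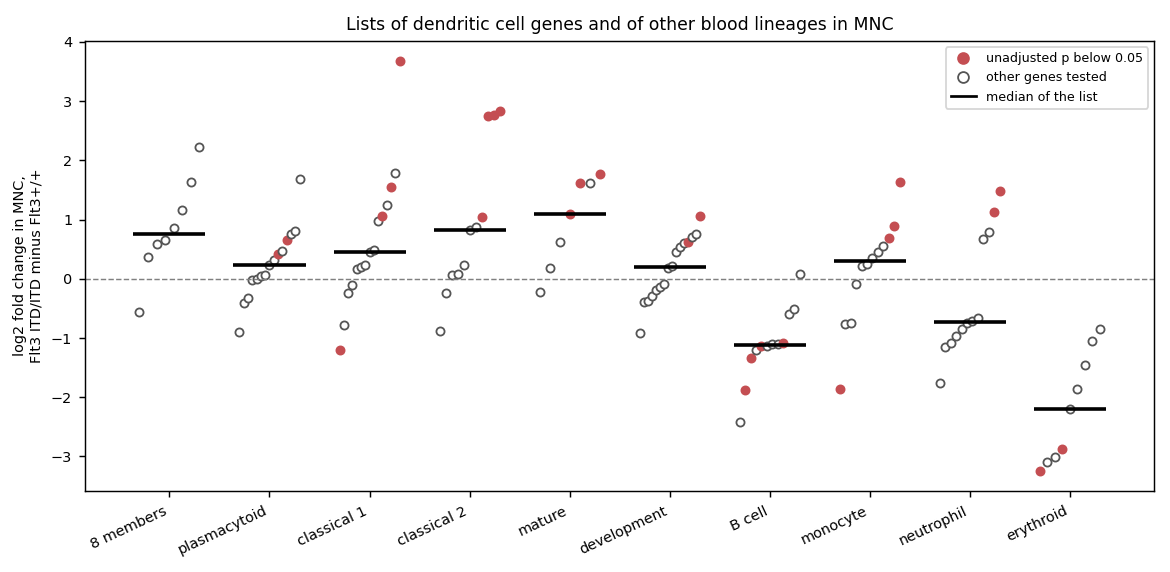
Log2 fold changes in MNCs (y axis, Flt3 ITD/ITD minus Flt3+/+) for each tested gene of the DC lists and of 4 other blood lineages (x axis), with red points at an unadjusted p below 0.05 and a line at each list's median. The median is 0.76 for the 8 genes and 1.10 for mature DC genes (0.68 and 0.36 without Flt3 ITD/ITD replicate 3), and it is -1.12 for B cell genes and -2.20 for erythroid genes.

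Among 15 further pDC genes, 11 were higher in Flt3 ITD/ITD MNCs, 2 at an unadjusted p below 0.05 (5.39% of all genes tested were). The median log2 fold change was 0.23. Without Flt3 ITD/ITD replicate 3 it was 0.38, with 12 higher and none at that threshold. Bst2, a restriction factor that also serves as a pDC marker in unstimulated mice, averaged 65.9 ± 41.5 (SD, n = 4) RPKM in Flt3+/+ libraries and 124 ± 40.7 in Flt3 ITD/ITD libraries, with a log2 fold change of 0.80 (SE 0.41, adjusted p = 0.521 by edgeR). Over both genotypes Bst2 averaged 159 ± 45.3 RPKM in ECs and 20.3 ± 17.4 in MSCs, so it was not particular to MNCs. Ly6d, shared by pDC and B cell precursors, was at 217 ± 136 and 180 ± 112 RPKM, and its log2 fold change was -0.40 (SE 0.54). Plac8, which many marrow cells besides pDCs express, was the most abundant gene of the list. Its levels were 768 to 1515 RPKM in Flt3+/+ and 1537 to 1965 in Flt3 ITD/ITD MNCs, with a log2 fold change of 0.42 (SE 0.18, adjusted p = 0.467 by edgeR). Plac8 was the 1 gene of the 15 in which the genotypes did not overlap, as they did not in 6.71% of all genes tested.

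For the branch that Clec9a marks, 11 of 15 further genes were higher in Flt3 ITD/ITD MNCs, 3 of them at an unadjusted p below 0.05 (5.39% of all genes tested were). The median log2 fold change was 0.46. Without Flt3 ITD/ITD replicate 3 it was 0.19, with 9 of the 15 higher. The most abundant, Cd24a, Id2 and Naaa, are also used by other blood cells. Cd24a, carried by erythroid, neutrophil and B cells as well, was the 1 lower gene at an unadjusted p below 0.05, with a log2 fold change of -1.21 (SE 0.44, adjusted p = 0.419 by edgeR). Id2, an inhibitor of E proteins, and Naaa, a lysosomal amidase, had log2 fold changes of 0.19 (SE 0.29) and 0.49 (SE 0.33). Xcr1, the chemokine receptor that defines the branch and was named after its values were seen, was at 1.33 ± 0.349 and 1.79 ± 0.812 RPKM (SD, n = 4 each). It was not particular to MNCs, since it was at 1.68 to 3.85 RPKM in ECs and 1.22 to 3.17 in MSCs.

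The list of the other classical branch and the list of mature DCs had the 2 highest medians of the 5 lists with all libraries, whereas without Flt3 ITD/ITD replicate 3 the mature DC median (0.36) was below that of the pDC list (0.38). Of 11 tested genes of the former, 9 were higher in Flt3 ITD/ITD MNCs, 4 at an unadjusted p below 0.05 (5.39% of all genes tested were). The median log2 fold change of the 11 was 0.82 (0.65 without replicate 3). Cd209a, a C-type lectin of these DCs and of some monocytes, was at 25.53, 121.66, 43.27 and 144.44 RPKM in Flt3+/+ and at 189.60, 272.02, 1997.17 and 141.58 in Flt3 ITD/ITD MNCs. Replicate 3 was far above the rest, and 3 of the 4 Flt3 ITD/ITD libraries were above the highest Flt3+/+ library. The log2 fold change was 2.75 (SE 0.95, adjusted p = 0.419 by edgeR), and 1.05 (95% interval -0.29 to 2.39) without replicate 3. Clec10a, another lectin of the same cells that was named after its values were seen, was at 9.52, 5.95, 10.09 and 10.38 RPKM in Flt3+/+ and at 31.34, 25.96, 213.85 and 30.88 in Flt3 ITD/ITD MNCs. All 4 Flt3 ITD/ITD libraries were thus above the Flt3+/+ libraries, with replicate 3 far above the rest. The genotypes separated without overlap in 6.71% of all genes tested. The log2 fold change of Clec10a was 2.83 (SE 0.73), and 1.45 (SE 0.30, adjusted p = 0.672 by edgeR) without replicate 3. Cd7, which T and NK cells share, had a log2 fold change of 1.04 (SE 0.29, adjusted p = 0.397 by edgeR) and no overlap. Sirpa, carried by most myeloid cells, had one of 0.06 (SE 0.21).

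Of 7 tested genes of mature DCs, 6 were higher in Flt3 ITD/ITD MNCs, 3 at an unadjusted p below 0.05 and without overlap. Of all genes tested, 5.39% were higher at that threshold and 6.71% had no overlap in either direction. The median log2 fold change of the 7 was 1.10. Without Flt3 ITD/ITD replicate 3 the same 7 had a median of 0.36 with 4 higher, 3 of them (Kmo, Cst3 and Cd40) at an unadjusted p below 0.05. The 3 lower were then Ccr7 (-0.26), Cd83 (-0.38) and Cd86 (-0.31). Fscn1, Ccl22 and Ccl17 of the list had too few reads to be tested. Kmo, an enzyme of tryptophan breakdown, was at 26.90, 21.50, 7.49 and 14.43 RPKM in Flt3+/+ and at 49.24, 47.33, 95.36 and 44.36 in Flt3 ITD/ITD MNCs. The 4 Flt3 ITD/ITD libraries were all higher, also when replicate 3 is set aside, and the log2 fold change was 1.61 (SE 0.36) with an adjusted p of 0.397 by edgeR and of 0.00477 by DESeq2. Cst3, a cysteine protease inhibitor abundant in DCs and macrophages, was at 462 to 891 RPKM in Flt3+/+ and 948 to 3008 in Flt3 ITD/ITD MNCs, with a log2 fold change of 1.10 (SE 0.37, adjusted p = 0.418 by edgeR) that became 0.58 without replicate 3. Cst3 is not particular to DCs in these data, since it was at 2753 to 5394 RPKM in ECs and 6046 to 16796 in MSCs. Cd86, a costimulatory ligand of T cells, overlapped between genotypes and had a log2 fold change of 0.19 (SE 0.38), or -0.31 without that library.

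Of 16 genes acting in DC development, 9 were higher, 2 at an unadjusted p below 0.05 (Flt3 and Csf1r), against 5.39% of all genes tested. The median log2 fold change was 0.20 (0.13 without replicate 3, with 10 higher). Csf1r, the receptor that monocytes share with DC progenitors, was at 19.1 to 42.5 RPKM in Flt3+/+ and 49.7 to 73.6 in Flt3 ITD/ITD MNCs, with a log2 fold change of 0.62 (SE 0.22, adjusted p = 0.419 by edgeR). Irf2, an interferon regulatory factor, and Csf2rb, the shared receptor chain for GM-CSF, had log2 fold changes of 0.18 (SE 0.21) and -0.18 (SE 0.18).

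Flt3 ITD/ITD replicate 3 was the highest of the 8 MNC libraries for 4 of the 8 DC genes and for 22 of the 64 other DC genes (34.4%), and for 17.0% of all genes tested. Its sum of monocyte and macrophage genes, 7264 RPKM, was also the highest and its sums of neutrophil genes (44529) and B cell genes (236) the lowest. The part of this make-up in the DC values was not tested. Sums over 10 erythroid genes, 9 of which were in the table, ranged from 76.5 to 56541 RPKM in the Flt3+/+ libraries and between 903 and 9154 in those of Flt3 ITD/ITD MNCs, and Hbb-bs, a beta globin, and Car2, a carbonic anhydrase, were its most abundant genes. The lists of other cells had median log2 fold changes of 0.30 for monocytes and macrophages (8 of 12 genes higher), -0.73 for neutrophils (4 of 12), -2.20 for erythroid cells (0 of 9), -0.53 for T and NK cells (3 of 9), -1.17 for megakaryocytes (0 of 6) and -0.16 for leukocytes at large (3 of 10). Immediate-early genes had one of -0.07 (5 of 10), or 0.27 without Flt3 ITD/ITD replicate 3 (9 of 10), and of the endothelial and mesenchymal genes 3 and 2 could be tested, with 0.52 and 0.08.

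The levels of the 8 genes were then compared between populations, in 1 model of all 28 libraries with 16897 genes tested and calls at an adjusted p below 0.05. Siglech, Irf8, Spib, Batf3, Itgax and Clec9a were higher in MNCs than in ECs, as were 22.8% of all genes tested, and Tcf4 and Zbtb46 were lower in MNCs, as were 23.2%. The same 6 were higher in MNCs than in MSCs (21.3% of all genes tested), Tcf4 was lower (23.8%), and Zbtb46 was not called. Irf8, Tcf4, Spib and Zbtb46 were higher in ECs than in MSCs (15.6% of all genes tested) and none was lower (17.6%).

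**Figure D4:**
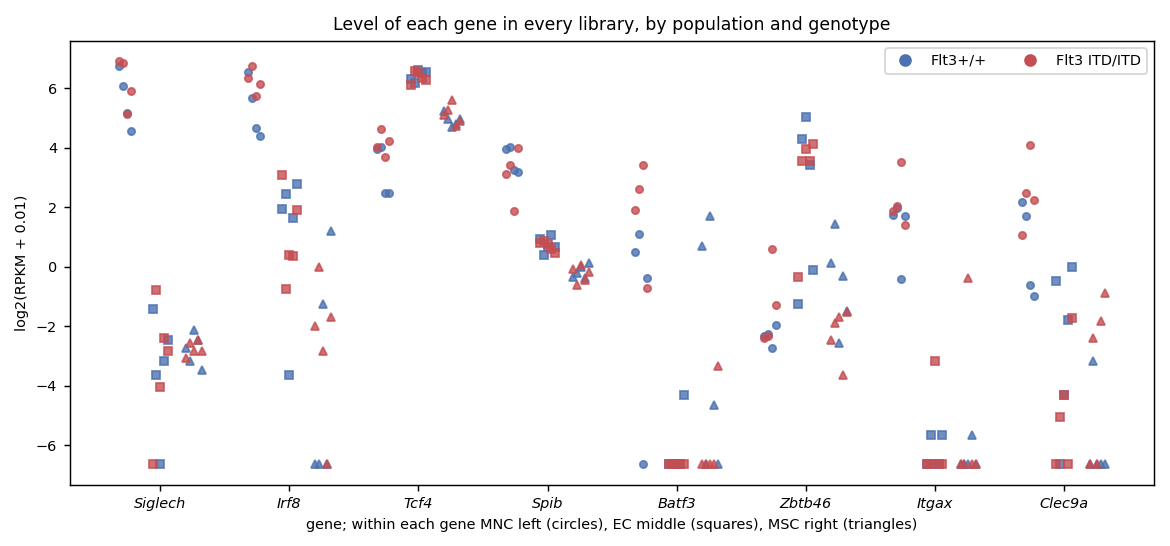
Level of each gene in all 28 libraries as log2(RPKM + 0.01), so that a level of 0 sits at the bottom, with MNCs as circles, ECs as squares and MSCs as triangles, and colors for genotype. Tcf4 is highest in ECs in every library, Zbtb46 splits the ECs into 3 libraries below 1 RPKM and 7 at 10.64 or more, and Siglech is read at 23.65 RPKM or more in MNCs and at 0.57 or less elsewhere.

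Siglech averaged 70.5 ± 38.9 (SD, n = 8) RPKM in MNCs, 0.163 ± 0.178 in ECs and 0.141 ± 0.0407 in MSCs (n = 10 each). It was thus read almost only in MNCs, at log2 fold changes of 8.65 (SE 0.64) over ECs and 8.65 (SE 0.64) over MSCs. The highest EC value, 0.57, was in the Flt3 ITD/ITD library with the neutrophil sum of 30084, and without that library the log2 fold change over ECs was 9.19. The 2 stromal populations did not differ beyond their spread (0.00, 95% interval -1.02 to 1.03). Spib, likewise highest in MNCs at 11.1 ± 4.43 RPKM, kept a small and even level in ECs, 1.65 ± 0.244, and in MSCs, 0.869 ± 0.140. Itgax and Clec9a averaged 4.12 ± 3.11 and 4.78 ± 5.26 RPKM in MNCs, and their EC and MSC levels (0.012 and 0.076 for Itgax, 0.237 and 0.108 for Clec9a) did not differ past the threshold.

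Irf8 followed the order MNCs (63.0 ± 31.1 RPKM), ECs (3.47 ± 2.81) and MSCs (0.434 ± 0.714), with each step past the threshold. In ECs it ranged from 0.07 to 8.51 RPKM over libraries of both genotypes, and 1 MSC library, Flt3+/+ replicate 5, stood at 2.27. Batf3 averaged 3.17 ± 3.61 RPKM in MNCs and 0.004 ± 0.0126 in ECs, where 1 read was counted in 10 libraries together. In MSCs it was read 16, 0, 82, 1 and 0 times in Flt3+/+ and 0, 0, 0, 0 and 1 times in Flt3 ITD/ITD libraries, so that its MSC mean of 0.496 RPKM rests mostly on 2 libraries. ECs and MSCs did not differ in Batf3 past the threshold (log2 fold change -3.82, adjusted p = 0.0577 by edgeR).

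Tcf4, by contrast, was most abundant in ECs at 84.9 ± 10.4 RPKM, then in MSCs at 33.0 ± 6.86, and least abundant in MNCs at 14.4 ± 6.39. The log2 fold change of MNCs was -2.57 (SE 0.18) against ECs and -1.55 (SE 0.18) against MSCs, and that of ECs against MSCs was 1.03 (SE 0.16), so that every neighbour in this order differed. Zbtb46 is known outside the blood as an endothelial transcriptional regulator, and it averaged 12.2 ± 10.1 RPKM in ECs against 0.626 ± 0.800 in MSCs and 0.381 ± 0.459 in MNCs. Its levels were 0.41, 19.71, 32.86, 10.64 and 0.92 RPKM in Flt3+/+ ECs and 0.78, 11.84, 15.58, 11.67 and 17.39 in Flt3 ITD/ITD ECs. Libraries below 1 RPKM thus occurred in both genotypes, beside others that were at least 10 times higher. MNCs and MSCs did not differ in Zbtb46 past the threshold (log2 fold change -0.61, 95% interval -2.00 to 0.77).

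Between genotypes, none of the 8 genes was called in ECs (0.0081% of 12351 genes tested were) or in MSCs (0.0295% of 13574). Irf8, Tcf4, Spib and Zbtb46 passed the filter on low counts in both, and the other 4 did not. In ECs none of the 4 had an unadjusted p below 0.05, against 4.99% of all genes tested, and their log2 fold changes ran from -0.34 for Irf8 (SE 0.99) to -0.03 for Spib (SE 0.43), with Tcf4 at -0.07 (95% interval -0.43 to 0.29). In MSCs 1 of the 4 did, against 4.24% of all genes tested. This was Zbtb46, at 1.09, 2.72, 0.16, 0.80 and 0.35 RPKM in Flt3+/+ and 0.17, 0.26, 0.30, 0.07 and 0.34 in Flt3 ITD/ITD MSCs, with a log2 fold change of -2.00 (SE 0.76, adjusted p = 0.999 by edgeR). The genotypes overlapped, since 1 Flt3+/+ library (0.16) lay within the Flt3 ITD/ITD range and another (0.35) just above it.

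The genotype difference of MNCs was compared with that of ECs and of MSCs by an interaction term. None of the 8 genes passed, against 0.0118% and 0.00592% of all genes tested. The nearest were Tcf4 against ECs (difference of log2 fold changes 0.73, SE 0.34, adjusted p = 0.577 by edgeR) and Batf3 against MSCs (7.91, SE 2.37, adjusted p = 0.457), the latter resting on the 2 Flt3+/+ MSC libraries with reads.

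Over the 28 libraries the genes whose log2(RPKM + 1) followed each DC gene most closely were found by Pearson correlation among 12035 genes (12036 for Zbtb46), as a description in which all points share the contrast of 3 populations. Siglech was followed by Plcb2 (r = 0.996), Bin2 and AK020768, Irf8 by Themis2 (0.959), Naip2 and Ptpn7, and Spib by Tube1 (0.977) and Bard1 (0.969). Itgax was followed by Cd209a (0.966), Kmo (0.965) and Il10ra, and Clec9a by Cd226 (0.940), Kynu and AK171153. Tcf4 and Zbtb46, the genes that were highest in ECs, were followed by Ly6c1 (0.951), Lrrc8a and AK161406, and by Prex2 (0.841), Fcho2 and Gm13154. Batf3 had the looser companions P2ry10 (0.869), AK171153 and Amz1.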

How the data were processed

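Per the labels and the study's methods, cDNA from sorted marrow cells was made with the SMARTer kit and sequenced as single-end reads. The authors aligned reads with Bowtie to mm10 UCSC transcripts, discarded non-unique reads and quantified genes with RSEM; versions are not given in the sources used here. The deposited table holds estimated counts, here whole numbers, and RPKM values from the authors. Within each population the genotypes were tested with edgeR 4.0.16 in R 4.3.3 (quasi-likelihood test, TMM, filterByExpr, Benjamini-Hochberg adjustment); populations and interactions were compared in 1 model of 6 groups. Alternatives were DESeq2 1.42.0, edgeR's exact test, RLE scaling, no filter, a replicate block and leaving out each library. The EC against MSC contrast and the split by replicate numbers were added after seeing the data. The scripts were tested on simulated data.

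The 8 genes and all lists were chosen with earlier results of these data known. Besides the 8 genes and Flt3, the rule named, of each DC list, genes with an adjusted p below 0.1 and the 3 with the highest mean RPKM in MNCs; of each other cell type, the 2 with the highest; and, for each of the 8, the 3 most correlated genes whose RPKM in MNCs averaged 1 or more (1 of these is not reported here). The top 2 genes were Vpreb3 and Cd79b for B cells, S100a8 and Ngp for neutrophils, Nkg7 and Gzma for T and NK cells, Gp9 and Gp1bb for megakaryocytes, Arhgdib and Tyrobp for leukocytes, Pecam1 and Cdh5 for ECs, Col1a2 and Pdgfrb for MSCs, and Btg2 and Zfp36 for immediate-early genes. Promoter sequences and gene spans are RefSeq's (GRCm38.p6).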

Additional observations from a re-analysis of the deposited data

Results flagged for a closer look

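In 7 of the 47 sets of 4 or 5 libraries examined for the 8 genes and Flt3 (1 gene in 1 genotype and population), the highest library was set apart by a gap above Dixon's 95% critical value. That value assumes normally distributed levels, whereas in some of these sets the other libraries were at or near 0. The number of sets is therefore not compared with a chance rate. Both sets in MNCs were set apart by Flt3 ITD/ITD replicate 3: Zbtb46 stood at 1.50 RPKM there, with the next library at 0.40, and Itgax at 11.35, with the next at 4.09. Itgax was also read in 1 Flt3 ITD/ITD library each of ECs (replicate 3, 0.10 RPKM) and MSCs (replicate 3, 0.75 RPKM), with the other libraries of those groups at 0. Irf8 stood at 2.27 RPKM in Flt3+/+ MSC replicate 5, with the next library at 0.41. That library also had the highest sum of 10 pan-leukocyte genes among Flt3+/+ MSCs, 214 RPKM against 31.9 to 94.4, and its part in the Irf8 value was not tested. Clec9a stood at 0.29 RPKM in Flt3 ITD/ITD EC replicate 5 (next 0.04) and at 0.10 in Flt3+/+ MSC replicate 2 (others 0). No gene of the 8 met the interaction threshold between populations.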

How the results depend on the processing

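In no population was any of the 8 genes called between genotypes under any alternative run, whereas the number of genes called among all tested varied. In MNCs it was 2, against 457 by DESeq2, 164 by edgeR's exact test, 0 with the replicate block and 0 to 1 on leaving out single libraries. In ECs it was 1, against 380, 16, 0 and 0, and 0 without the low-count filter. In MSCs it was 4, against 220, 19, 0 and 0 to 2, and 2 without the filter. For the interactions, DESeq2 called 517 genes for MNCs minus ECs and 388 for MNCs minus MSCs, and leaving out single libraries gave 2 to 12 and 1 to 4. The cause of these differences was not tested.

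Same-numbered libraries of the 2 genotypes had correlations of their deviations from -0.07 to 0.06, none above 0.1, so the numbers were not taken to pair the samples. In MSCs all of these correlations were positive (0.03 to 0.06), and whether the numbers mark a shared batch was not tested. With the replicate block the sign changed for Zbtb46 in ECs (0.45) and Irf8 in MSCs (1.11), neither called. In MNCs the block put 2 of the 8, Irf8 and Tcf4, below an unadjusted 0.05 in edgeR's quasi-likelihood test, which 8.24% of all genes then passed, and the adjusted p of both was 0.595. No refitted alternative turned the direction of any of the 8 genes in MNCs, but the untested split by replicate numbers did: the ratio of means was below 1 for Zbtb46 (0.949) and Clec9a (0.985) in replicates 1 and 2 and above 1 for Spib (1.05) in replicates 3 and 4. On leaving out single libraries, uncalled values crossed 0 in ECs for Tcf4 (-0.15 to 0.0012), Spib (-0.11 to 0.035) and Zbtb46 (-0.50 to 0.54). They did so in MSCs for Spib (-0.11 to 0.042) and Irf8 (-1.65 to 1.39, the latter without Flt3+/+ replicate 5), and for Itgax in the interaction with MSCs (-6.01 to 2.08, the latter without Flt3 ITD/ITD MSC replicate 3).

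All 8 genes stayed called between MNCs and ECs, and 7 between MNCs and MSCs, under each alternative run. Between ECs and MSCs 4 to 6 were called on leaving out single libraries, and Spib missed the threshold without the filter (adjusted p = 0.0501 by edgeR). With 4 libraries per genotype, intervals for Batf3 and Clec9a in MNCs span over 3 log2 units, and levels below 1 RPKM rest on few reads.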
